A study of Mus musculus with 18 samples.

Results

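Spleens of ICR mice that received a high fat diet together with AOS were compared with spleens of control mice, and a gene of the deposited table was taken as a member where its mean reached 1 FPKM in either group. That gave 12765 of the 19326 gene rows. FPKM are numbers of sequenced fragments scaled to the length of the transcript and the size of the library. Among members the lowest higher-group mean was 1 FPKM, among the other genes the highest was 0.997 FPKM, and 180 members lay between 1 and 1.1 FPKM. The HFD+AOS mice were aged 10 weeks and had the diet plus AOS at 10 mg/kg, and the controls were aged 10 weeks, of the same outbred stock, and carried only the label control. AOS is read here as alginate oligosaccharide, a short product of a seaweed polysaccharide. The series holds 18 libraries in 6 groups of 3. The other groups were the diet alone (HFD), AOS alone at 10 mg/kg, and the diet with an AOS 10 mg/kg-FMT or with a control-FMT, where FMT is taken to mean faecal microbiota transplantation. Nothing in the labels ties the 3 libraries within each group to different animals, so p-values measure only the spread between libraries, which may be technical. The labels also give no sex, duration of treatment, hour of sampling or batch.

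The spleen filters blood and hosts immune responses. Its red pulp removes old red cells through macrophages and, in mice, also forms new red cells, platelets and granulocytes, while its white pulp holds B and T lymphocytes. B cells that mature into plasma cells turn into secretory cells, with an enlarged endoplasmic reticulum (ER) in which antibody chains are folded, glycosylated and checked before export. The transcription factors Irf4, Prdm1 and Xbp1 drive this programme, and Xbp1 switches on the machinery of the ER.

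Column totals were 764684, 679894 and 627964 FPKM on HFD+AOS and 831448, 749161 and 673428 FPKM in controls, and 12221 to 12898 genes per library reached 1 FPKM over all 18 libraries. The number of reads behind a value is unknown. Markers of spleen cells were present in each of the 6 libraries, with the B cell receptor gene Cd79a at 508 FPKM or more, the T cell gene Cd3e at 17.3 FPKM or more and the red pulp macrophage gene Spic at 36.5 FPKM or more. Haemoglobin genes took 28.1%, 19.9% and 12.6% of all FPKM on HFD+AOS and 34.4%, 27.1% and 21.5% in controls. Libraries also differed in transcripts of neutrophils and of organs other than the spleen. The 13 genes of neutrophil granule precursors summed to 488, 265 and 161 FPKM on HFD+AOS, against 6590.0, 1911 and 341 FPKM in controls, so that control library 1 stood apart. Exocrine pancreas genes summed to 245, 19556 and 8700.3 FPKM on HFD+AOS, against 2368, 381 and 25.9 FPKM in controls. The part of these transcripts in the results below was not tested. The controls varied more than any other group, with a median SD per gene of 0.185 on the log2 scale, against 0.139 on HFD+AOS and 0.0910 to 0.126 in the other groups.

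Values were tested as log2(FPKM + 1) with limma in 1 fit to all 18 libraries, and a gene was called at an adjusted p under 0.05. Fold changes below are on that scale and understate the change of genes with low values. Of the 12765 members, 271 were called (2.12%), 234 of them higher (1.83%) and 37 lower (0.29%) on HFD+AOS. Called rises ran from 0.24 to 2.40 with a median of 0.57, and called falls from −0.23 to −4.16 with a median of −0.50. The log2 fold change exceeded 1 for 30 genes and lay under −1 for 10. Over all members the median was 0.046, and 7700 members had a positive and 5065 a negative sign. The libraries of the 2 groups did not overlap for any of the 271, which was true of 2206 members (17.3%). An unadjusted p under 0.05 held for 2446 members, and the lowest adjusted p was 0.0160.

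These counts rested on single libraries and on the shared estimate of spread. It pools the controls, the most variable group, with the other groups. Without HFD+AOS library 2, 0 genes passed in limma (lowest adjusted p = 0.0880, and 1886 with an unadjusted p under 0.05), and without control library 1, 9 passed. Without control library 3 the count was 1287, and without HFD+AOS library 1, HFD+AOS library 3 or control library 2 it was 106, 120 and 139. Leaving out the first HFD+AOS-FMT library gave 175. A fit to the 6 compared libraries alone called 1 gene, a fall, and 0 rises, with 1346 members at an unadjusted p under 0.05. All 271 genes kept their sign in each of these fits, which was fixed in advance because their groups did not overlap. With haemoglobin genes left out and the rest rescaled, the median of all genes lay at −0.081 and 28 genes were called higher and 26 lower. Scaling by median ratios gave 99 higher and 35 lower, and quantile normalization 143 higher and 43 lower.

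**Figure D1:**
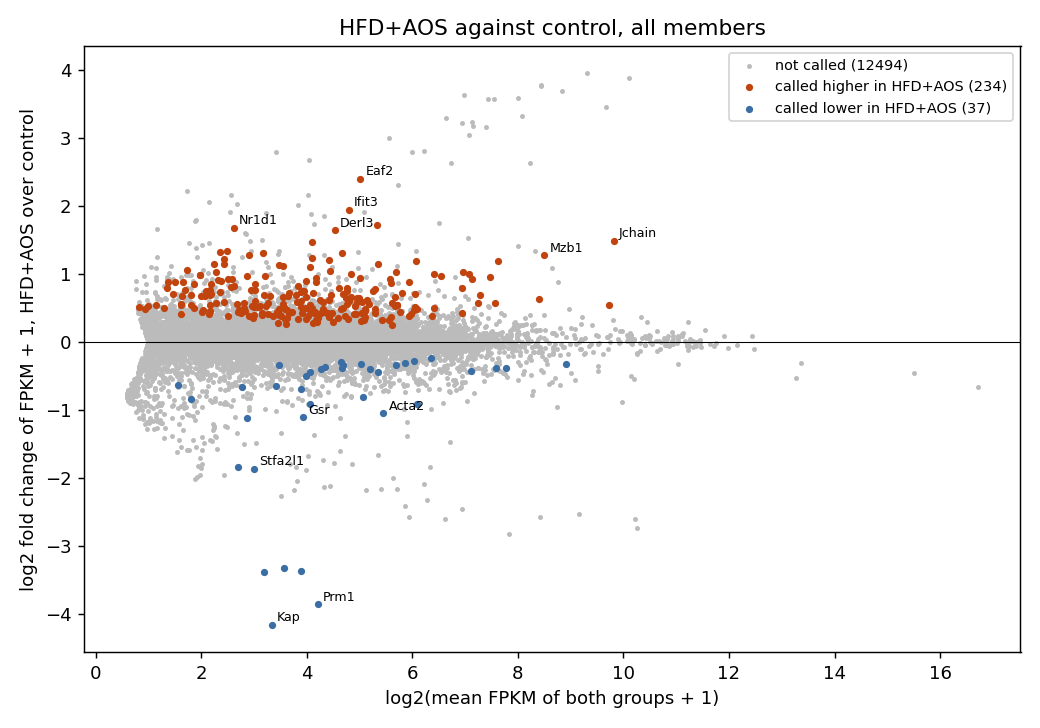
Log2 fold change of FPKM + 1 of HFD+AOS over control against the log2 mean of FPKM + 1 over the 2 group means for the 12765 members. Orange points are the 234 genes called higher on HFD+AOS, blue points the 37 called lower and grey points the rest. Called rises lie mostly under 1, the grey points above 3 with no call are pancreatic enzyme genes, and Kap and Prm1 are the lowest labelled points.

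Promoter sequences of 4 called genes are shown because they carry short motifs named for the gene groups described below. They are the 250 bases before the RefSeq gene start on the gene's own strand, from RefSeq on GRCm38.p6, and capitals mark the motif. Gene positions given elsewhere are from a separate set of gene bounds, in which Ifit3 starts further upstream. The Ifit3 window lies within the gene as drawn there. Derl3 (chr10:75893148-75893397, + strand) and Syvn1 (chr19:6046326-6046575, + strand), of ER-associated degradation, hold the ER stress element, searched as CCAAT and CCACG with any 9 bases between them. Bhlhe41 (chr6:145865421-145865670, − strand), a clock gene, holds the E-box CACGTG. Ifit3 (chr19:34583279-34583528, + strand), an interferon-induced gene, holds the core of the interferon-stimulated response element, searched as GAAA and GAAA with any 2 bases between, in 2 places.
Derl3: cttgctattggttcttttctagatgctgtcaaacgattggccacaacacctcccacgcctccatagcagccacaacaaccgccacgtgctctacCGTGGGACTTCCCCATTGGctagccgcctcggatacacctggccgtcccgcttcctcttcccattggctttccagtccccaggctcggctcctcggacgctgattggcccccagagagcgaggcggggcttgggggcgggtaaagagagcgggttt
Syvn1: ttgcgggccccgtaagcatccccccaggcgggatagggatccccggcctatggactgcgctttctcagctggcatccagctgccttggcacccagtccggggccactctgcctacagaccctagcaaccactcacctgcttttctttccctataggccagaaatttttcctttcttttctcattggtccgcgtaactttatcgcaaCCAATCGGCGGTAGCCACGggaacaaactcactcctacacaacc
Bhlhe41: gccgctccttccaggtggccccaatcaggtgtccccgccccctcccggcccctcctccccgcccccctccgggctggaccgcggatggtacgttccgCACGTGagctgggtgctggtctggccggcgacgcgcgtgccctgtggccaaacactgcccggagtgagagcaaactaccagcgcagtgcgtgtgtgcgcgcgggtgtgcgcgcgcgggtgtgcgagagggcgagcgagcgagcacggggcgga
Ifit3: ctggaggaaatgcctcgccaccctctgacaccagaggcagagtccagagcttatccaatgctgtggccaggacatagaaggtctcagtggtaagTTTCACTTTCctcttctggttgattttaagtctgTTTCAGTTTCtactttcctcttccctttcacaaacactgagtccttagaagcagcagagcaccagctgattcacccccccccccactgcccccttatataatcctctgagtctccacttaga

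Both strands were searched, so that the capitals of Derl3 and Ifit3 spell the reverse complement. The Derl3 window also holds 1 E-box, left in lower case. Promoters were found for 203 of the 271 called genes. The ER stress element lay in 33 of all 27025 promoters of that length (0.122%), in 0.15% of the 10032 promoters of members and in 2 of the 174 promoters of called rises (1.15%). The interferon motif lay in 3.04% of all promoters, in 2.93% of those of members and in 13 of the 174 (7.47%). The E-box lay in 6.05% of all promoters, in 8.29% of those of members and in 10 of the 174 (5.75%). Of 29 promoters of called falls, 1 held the E-box and 0 held either of the other motifs. A match describes the letters of the window and does not show that a factor binds there.

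Plasma cell genes formed the list with the most calls. Of its 13 members, all 13 lay higher on HFD+AOS and 11 were called (84.6%), against 1.83% of all members called higher. The median log2 fold change was 1.15, against 0.046 over all members. Jchain, which joins antibody units into polymers, was at 1196, 1728 and 1009 FPKM in HFD+AOS libraries 1 to 3, against 356, 759 and 352 FPKM in control libraries 1 to 3. All 3 HFD+AOS libraries exceeded all 3 controls, and the log2 fold change was 1.48 ± 0.34 SE (limma, adjusted p = 0.0409). Sdc1, the surface proteoglycan by which plasma cells are sorted, was at 11.7, 13.9 and 9.54 FPKM in HFD+AOS libraries 1 to 3, against 3.63, 5.77 and 3.24 FPKM in control libraries 1 to 3. Its log2 fold change was 1.30 ± 0.22 SE (limma, adjusted p = 0.0169). Tnfrsf17, the receptor for survival factors of plasma cells, was at 6.74, 8.33 and 3.77 FPKM on HFD+AOS, against 1.04, 3.16 and 1.62 FPKM in controls, and it rose by 1.32 on the log2 scale. In spleen tissue more plasma cells and more RNA per plasma cell cannot be told apart.

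The transcription factors of the plasma cell programme were called as well. Prdm1, which represses the B cell programme, was at 5.4, 6.17 and 5.03 FPKM in HFD+AOS libraries 1 to 3, against 1.51, 2.48 and 1.91 FPKM in control libraries 1 to 3 (log2 fold change 1.15 ± 0.19 SE; limma, adjusted p = 0.0169). Xbp1 was at 113, 134 and 89.8 FPKM on HFD+AOS, against 50.1, 62.1 and 53.6 FPKM in controls and rose by 1.00. Irf4 was at 27.9, 34.9 and 31.04 FPKM on HFD+AOS, against 15.1, 18.9 and 25.96 FPKM in controls, rose by 0.65 and was the call of the list nearest the threshold (limma, adjusted p = 0.0498). In each of the 3 the groups did not overlap, though for Irf4 the highest control lay within 2 FPKM of the lowest HFD+AOS library. Bhlha15, a transcription factor of secretory cells that was not on the list, was at 7.21, 9.39 and 4.41 FPKM on HFD+AOS, against 1.77, 3.43 and 1.35 FPKM in controls and rose by 1.33.

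Of the remaining members of the list, 6 work in the ER and 1 is a surface receptor. Mzb1, a chaperone partner of antibody secretion, was at 509, 658 and 365 FPKM on HFD+AOS, against 173, 274 and 181 FPKM in controls and rose by 1.27. An exon of Mzb1 overlaps the gene annotated as SPATA24 on the same strand, so reads may be shared between them. Txndc5, a protein disulfide isomerase, was at 169.7, 188 and 138 FPKM on HFD+AOS, against 69.01, 97.05 and 76.7 FPKM in controls and had the smallest p of the list (log2 fold change 1.02 ± 0.17 SE; limma, adjusted p = 0.01596). The prolyl isomerase gene Fkbp11 rose by 1.47, Derl3 by 1.64 and the signal peptidase subunit gene Sec11c by 0.69. In all 5 the HFD+AOS libraries lay above the controls, and HFD+AOS library 2 was the highest of the 6. Creld2, an ER stress protein, missed the threshold at 86.7, 77.97 and 46.6 FPKM on HFD+AOS, against 25.5, 42.3 and 27.1 FPKM in controls (adjusted p = 0.0851). Tnfrsf13b, a receptor for the same survival factors on B cells, overlapped between the groups at 64, 69.8 and 77.97 FPKM on HFD+AOS, against 45.5, 58.3 and 69.5 FPKM in controls.

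**Figure D2:**
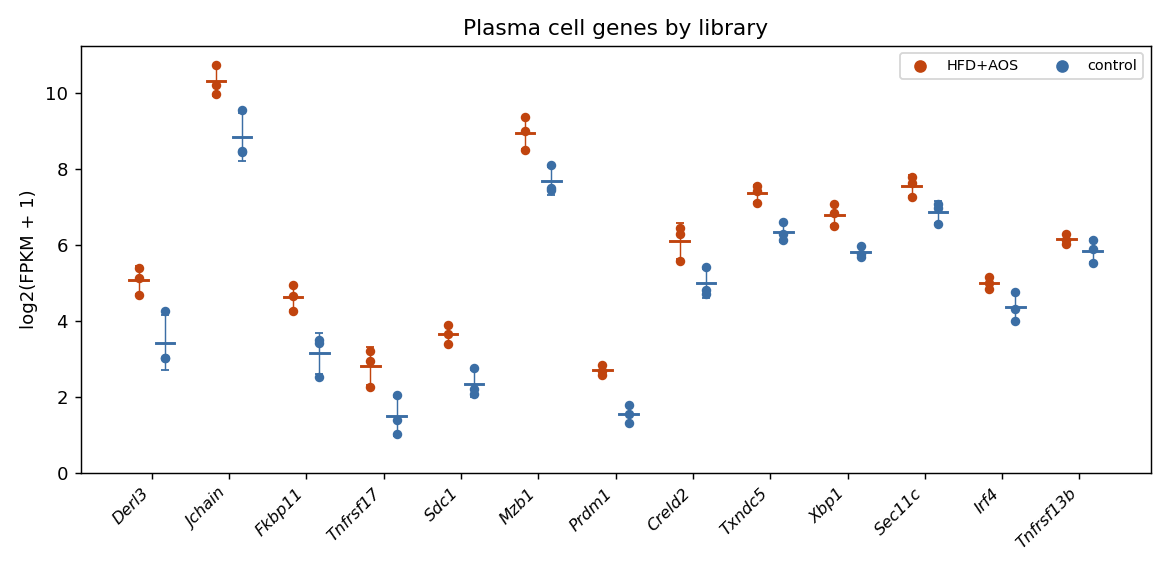
Log2(FPKM + 1) of the 13 plasma cell genes in each library, HFD+AOS (orange) left of control (blue), with the mean as a bar and the SD as whiskers (n = 3). The groups are apart for 12 genes and overlap for Tnfrsf13b.

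The largest rise of all called genes was that of Eaf2 on chromosome 16 (36792884 to 36875068, GRCm38), which codes for a factor of transcription elongation. It stood at 61.4, 64.8 and 32.5 FPKM in HFD+AOS libraries 1 to 3, against 8.85, 14.5 and 5.14 FPKM in control libraries 1 to 3, with a log2 fold change of 2.40 ± 0.48 SE (limma, adjusted p = 0.0237). The lowest HFD+AOS library was above the highest control by more than the whole range of the controls. Epcam, Pon3 and Alpl were further large rises outside the lists, and control library 2 was their highest control. Epcam, an adhesion molecule of epithelia, was at 5.71, 9.14 and 4.85 FPKM on HFD+AOS, against 1.85, 2.82 and 1.92 FPKM in controls. Pon3, a lactonase, was at 27.1, 36.95 and 23.3 FPKM on HFD+AOS, against 10.6, 15.1 and 10.4 FPKM in controls, and Alpl, the alkaline phosphatase of bone, liver and kidney, at 7.35, 6.75 and 5.14 FPKM on HFD+AOS, against 1.45, 3.55 and 2.26 FPKM in controls. They rose by 1.22, 1.20 and 1.15 on the log2 scale.

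Pancreatic acinar cells are secretory cells too, and Xbp1, Bhlha15 and Epcam work in them as well. The 14 exocrine pancreas genes had a median log2 fold change of 3.57 with 0 called. HFD+AOS libraries 2 and 3 were high and HFD+AOS library 1 was not. The elastase gene Cela1 was at 31.9, 1156 and 426 FPKM on HFD+AOS, against 135, 30.01 and 15.1 FPKM in controls. In HFD+AOS library 1, whose 245 FPKM of pancreatic transcripts lay below the 2368 FPKM of control library 1, the plasma cell list averaged 5.96 on the log2 scale. That was above all controls, at 4.62, 5.18 and 4.68, and between HFD+AOS libraries 2 and 3 at 6.19 and 5.65. The other 12 libraries of the series averaged 4.98 to 5.84. HFD+AOS library 1 is a single library, and the part of pancreatic tissue in the plasma cell values was not tested. The count of 11 fell to 0 without HFD+AOS library 2 or control library 1 and to 3 without HFD+AOS library 1, while the median stayed between 1.03 and 1.39 in every fit that left out 1 of the 6 libraries. With haemoglobin genes left out, 3 were called, with median ratios 5, and in the 6 libraries alone 0.

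Genes of the secretory pathway were also examined in lists that were added after the called genes had been seen. Some of these genes are on the plasma cell list too. The counts of the added lists describe the calls and support nothing. Protein quality control in the ER had the highest share of calls among them. Of 15 members of ER-associated degradation, 14 lay higher and 7 were called (46.7%), against 1.83% of all members called higher. Edem2, which trims glycans of misfolded proteins, was at 49.1, 56.3 and 40.3 FPKM on HFD+AOS, against 24.8, 31.4 and 27.3 FPKM in controls (log2 fold change 0.78 ± 0.14 SE; limma, adjusted p = 0.0182). Sel1l, the scaffold of the ubiquitin ligase of this pathway, was at 26.9, 37.7 and 28.2 FPKM on HFD+AOS, against 15.4, 19.8 and 20.3 FPKM in controls and rose by 0.71. The ligase itself, Syvn1, was at 70.02, 70.7 and 72.5 FPKM on HFD+AOS, against 46.4, 56.8 and 56.96 FPKM in controls and rose by 0.41. HFD+AOS libraries of Syvn1 differed by less than 3 FPKM. Derl3, which is also on the plasma cell list, Edem1, Edem3 and the lectin gene Os9 were the other called members. Without HFD+AOS library 2 or control library 1 the count was 0, without HFD+AOS library 1 it was 2, and without HFD+AOS library 3 or control library 2 it was 4.

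Entry into the ER, glycosylation and export had 3 called members each (11.5%, 10% and 16.7%), against 1.83% of all members called higher. Of 26 genes of translocation and signal peptide processing, 23 lay higher. The called ones were Rrbp1, a ribosome receptor (60.7, 64.7 and 58.1 FPKM on HFD+AOS, against 37.8, 44.9 and 42.4 FPKM in controls), the signal peptide peptidase gene H13 (log2 fold change 0.97) and Sec11c, which is also on the plasma cell list. Of 30 genes of N-glycosylation, 23 lay higher, and Manea, a mannosidase, was at 15.7, 16.96 and 15.2 FPKM on HFD+AOS, against 9.71, 10.4 and 10.8 FPKM in controls (log2 fold change 0.59 ± 0.088 SE; limma, adjusted p = 0.01596). Alg5, of the assembly of the glycan on its lipid carrier, rose by 0.53. Of 18 genes of COPII vesicles, which carry cargo to the Golgi, 16 lay higher, and the coat genes Sec24d (0.66) and Sec24a (0.59) and the cargo receptor Lman1 (0.80) rose. Of 22 genes of GPI anchor assembly, 1 was called, Pigt. Over these lists the medians were 0.29, 0.12, 0.20 and 0.11, and those of N-glycosylation and GPI anchors turned to −0.0042 and −0.019 with haemoglobin left out. Without HFD+AOS library 2 all 4 counts were 0, and without control library 1 they were 0, 1, 0 and 0.

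The unfolded protein response is the set of genes by which cells enlarge the folding capacity of the ER. Of its 21 members, 17 lay higher, with a median of 0.42, and 2 were called (9.52%), against 1.83% of all members called higher. These were Xbp1, also on the plasma cell list, and Edem1, also on the degradation list. Edem1 was at 59.8, 75.4 and 49.96 FPKM on HFD+AOS, against 31.5, 36.3 and 30.97 FPKM in controls and rose by 0.87. The chaperone gene Hsp90b1 was at 586, 674 and 431 FPKM on HFD+AOS, against 249.6, 349.7 and 314 FPKM in controls and did not pass (limma, adjusted p = 0.0808). Without HFD+AOS library 1 or 2 or control library 1 the count of 2 became 0. The ER stress element lay in the promoters of 7 of the 19 list members with a promoter (36.8%).

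Interferon-induced genes lay higher in nearly all members, with few calls. Of 22 type I interferon genes, 21 lay higher and 18 had groups apart, with a median of 0.90, and 2 were called. Over all members 12.5% lay higher with groups apart and 1.83% were called higher. Ifit3 (chromosome 19, 34583119 to 34588982, GRCm38), which binds viral RNA complexes with its family members, was at 58.9, 30.7 and 39.2 FPKM in HFD+AOS libraries 1 to 3, against 14.98, 7.17 and 9.29 FPKM in control libraries 1 to 3 (log2 fold change 1.94 ± 0.47 SE; limma, adjusted p = 0.0482). HFD+AOS library 1 was the highest of the 6 and control library 1 the highest control. Zbp1, a sensor of left-handed nucleic acids, was at 66.3, 52.4 and 46.9 FPKM on HFD+AOS, against 24.5, 24.3 and 23.9 FPKM in controls, with controls within 1 FPKM of each other, and it rose by 1.14. Irf7, the regulator of type I interferon genes, was at 215, 95.7 and 108 FPKM on HFD+AOS, against 49.97, 36.7 and 30.7 FPKM in controls and did not pass (adjusted p = 0.0752). The list averaged 5.39, 4.74 and 4.78 on the log2 scale on HFD+AOS, against 4.31, 3.97 and 3.97 in controls. The other 12 libraries averaged 3.64 to 5.80. AOS libraries 1 to 3 summed to 746, 462 and 1596 FPKM, against 1304, 775 and 758 FPKM on HFD+AOS and 588, 465 and 439 FPKM in controls. The 2 calls were lost without any 1 of HFD+AOS libraries 1, 2 and 3 and control libraries 1 and 2, and they became 5 without control library 3. They were also lost under median ratios, quantile normalization and rescaling without haemoglobin. Ifit3 has a close copy in the mouse genome, so its reads may be shared between the copies. The interferon motif lay in 7 of 16 promoters of the list (43.8%).

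Genes of antigen presentation on MHC class I lay higher in all 16 members, with a median of 0.42. The groups were apart for 14, and 5 were called (31.2%). Over all members 12.5% lay higher with groups apart and 1.83% were called higher. H2-K1, a class I molecule, was at 1007, 1044 and 943 FPKM in HFD+AOS libraries 1 to 3, against 580.0, 805 and 679 FPKM in control libraries 1 to 3 (log2 fold change 0.55 ± 0.13 SE; limma, adjusted p = 0.0366). Tap1 and Tap2, the subunits of the peptide transporter, were at 87.8, 83.3 and 73.7 FPKM on HFD+AOS, against 44.6, 53.4 and 51.4 FPKM in controls, and at 62.8, 62.02 and 61.1 FPKM on HFD+AOS, against 40.03, 50.2 and 46.5 FPKM in controls. They rose by 0.70 and 0.44. Nlrc5, the activator of class I genes, was at 16.5, 19.7 and 16.7 FPKM on HFD+AOS, against 8.3, 12.2 and 10.1 FPKM in controls and rose by 0.75. H2-T23, a class Ib molecule, rose by 0.57. Class I genes are similar to each other, and how the authors' counting split shared reads is not given in the sources used here. The count was 0 without HFD+AOS library 1 or 2 or control library 1, 3 without HFD+AOS library 3 or control library 2, and 8 without control library 3. It was 1 under median ratios and 0 with haemoglobin left out.

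Of 22 interferon gamma genes, 21 lay higher with a median of 0.52. Tap1, Nlrc5 and Gbp4 were called (13.6%), against 1.83% of all members called higher. Gbp4, a guanylate-binding protein, was at 38.5, 38.6 and 38.2 FPKM on HFD+AOS, against 21.99, 27.1 and 26.8 FPKM in controls and rose by 0.59. The immunoproteasome gene Psmb9 lay just outside the threshold at 181, 157 and 146 FPKM on HFD+AOS, against 98.5, 116 and 97.2 FPKM in controls (limma, adjusted p = 0.0503). The count of 3 was 0 without HFD+AOS library 1 or 2 or control library 1, and 7 without control library 3. All 11 class II genes had a positive sign, with a median of 0.096 and 0 called in limma. The median turned to −0.056 without control library 1 and to −0.045 with haemoglobin left out, and was 0.29 without control library 3, with 3 called. The groups overlapped for 10 of the 11, as for H2-DMa, a loader of class II peptides, at 86.4, 88.2 and 99.2 FPKM on HFD+AOS, against 69.2, 78.05 and 93.1 FPKM in controls, and for the class II activator Ciita, at 36.8, 39.6 and 43.4 FPKM on HFD+AOS, against 28.3, 27.5 and 44.4 FPKM in controls.

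Plasmacytoid dendritic cells are the main producers of type I interferon. Of 12 members of a list added after the called genes had been seen, all 12 lay higher with a median of 0.62. Of these, 3 were called (25%), against 1.83% of all members called higher. As for the other added lists, these counts describe the calls and support nothing. Siglech, their surface lectin in mice, was at 23.2, 19.01 and 27.1 FPKM in HFD+AOS libraries 1 to 3, against 7.26, 10.3 and 10.3 FPKM in control libraries 1 to 3 (log2 fold change 1.23 ± 0.22 SE; limma, adjusted p = 0.0179). Runx2, a transcription factor that keeps these cells mature, was at 4.11, 4.39 and 4.06 FPKM on HFD+AOS, against 2.01, 2.17 and 2.64 FPKM in controls and rose by 0.67. Cox6a2, a subunit of cytochrome oxidase, rose by 0.77. The list averaged 4.95, 4.93 and 5.003 in the HFD+AOS libraries, against 4.09, 4.15 and 4.18 in controls, with little spread within either group. The other 12 libraries averaged 4.33 to 4.94. The count was 0 without HFD+AOS library 2 or control library 1 and 5 without control library 3. In the list of all dendritic cells, Siglech was the 1 call of 13 members, and the median was 0.35.

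T cell activation genes lay higher in 17 of 17 members, with a median of 0.50 and 3 calls (17.6%), against 1.83% of all members called higher. Lag3, an inhibitory receptor, was at 11.6, 9.27 and 8.12 FPKM in HFD+AOS libraries 1 to 3, against 2.47, 4.57 and 3.26 FPKM in control libraries 1 to 3 (log2 fold change 1.28 ± 0.26 SE; limma, adjusted p = 0.02302). Cxcr3, the chemokine receptor of type 1 helper and cytotoxic cells, was at 20.6, 26.7 and 18.3 FPKM on HFD+AOS, against 8.89, 12.1 and 8.03 FPKM in controls and rose by 1.101. Tbx21, the transcription factor of those cells, was at 8.39, 9.2 and 9.82 FPKM on HFD+AOS, against 3.91, 6.35 and 4.82 FPKM in controls and rose by 0.77. For each the lowest HFD+AOS library lay above the highest control, which was control library 2. The count was 0 without HFD+AOS library 2 or control library 1, 1 without HFD+AOS library 1 and 5 without control library 3.

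Among 17 T cell genes, 16 lay higher with a median of 0.35, and Cd28, the co-stimulatory receptor, was called at 14.6, 21.2 and 15.3 FPKM on HFD+AOS, against 6.41, 10.4 and 11.2 FPKM in controls (log2 fold change 0.82). T cell genes were lowest in control library 1, where the list averaged 3.99, against 4.71 and 4.83 in the other controls and 4.77, 5.02 and 4.82 on HFD+AOS. Without that library the median was 0.11 with 0 calls. Of 13 NK and cytotoxic genes all 13 lay higher with a median of 0.43. Klrd1, a receptor subunit of NK cells, was at 18.9, 18.1 and 19.2 FPKM on HFD+AOS, against 13.3, 13.1 and 14.4 FPKM in controls and rose by 0.43, and the chemokine gene Ccl5 was at 238, 239 and 219 FPKM on HFD+AOS, against 88.2, 158 and 123 FPKM in controls and rose by 0.95. These 2 calls (15.4%) stand against 1.83% of all members called higher. Neither gene passed without HFD+AOS library 2 or control library 1. Of 9 regulatory T cell genes 8 lay higher with a median of 0.53 and 0 called in limma, the nearest being Ctla4 at 7.6, 7.8 and 6.53 FPKM on HFD+AOS, against 3.15, 5.29 and 3.2 FPKM in controls (adjusted p = 0.0646).

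Of 14 B cell genes 12 lay higher with a median of 0.14, and 1 was called, Cd72, an inhibitory co-receptor, at 74.4, 75.3 and 81 FPKM on HFD+AOS, against 48.6, 53.2 and 59.4 FPKM in controls (log2 fold change 0.51). The median turned to −0.044 without control library 1 and to −0.0054 without HFD+AOS library 3, and was 0.28 without control library 3. Mzb1, listed above, was the 1 call among 10 marginal zone B cell genes, whose median was 0.00. Of 11 germinal centre genes 10 lay higher with a median of 0.36, 0 were called and the groups overlapped for all 11. Among macrophages, Spic, the transcription factor of red pulp macrophages, was at 66.3, 64.2 and 75.2 FPKM in HFD+AOS libraries 1 to 3, against 39.9, 36.5 and 48.7 FPKM in control libraries 1 to 3 and rose by 0.71. It was the 1 call of 17 red pulp and iron recycling genes (median 0.35). Spic was at its highest in HFD+AOS library 3, which had the least haemoglobin of the 6. In each group, though, library 1 had both more haemoglobin and more Spic than library 2. Of 17 NF-kB and cytokine genes, 15 lay higher (median 0.26) and the chemokine gene Ccl3 was called at 6.51, 4.62 and 5.46 FPKM on HFD+AOS, against 2.49, 2.44 and 2.4 FPKM in controls (log2 fold change 0.91). Over all members 1.83% were called higher. Cd72, Mzb1, Spic and Ccl3 did not pass without HFD+AOS library 2 or control library 1.

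**Figure D3:**
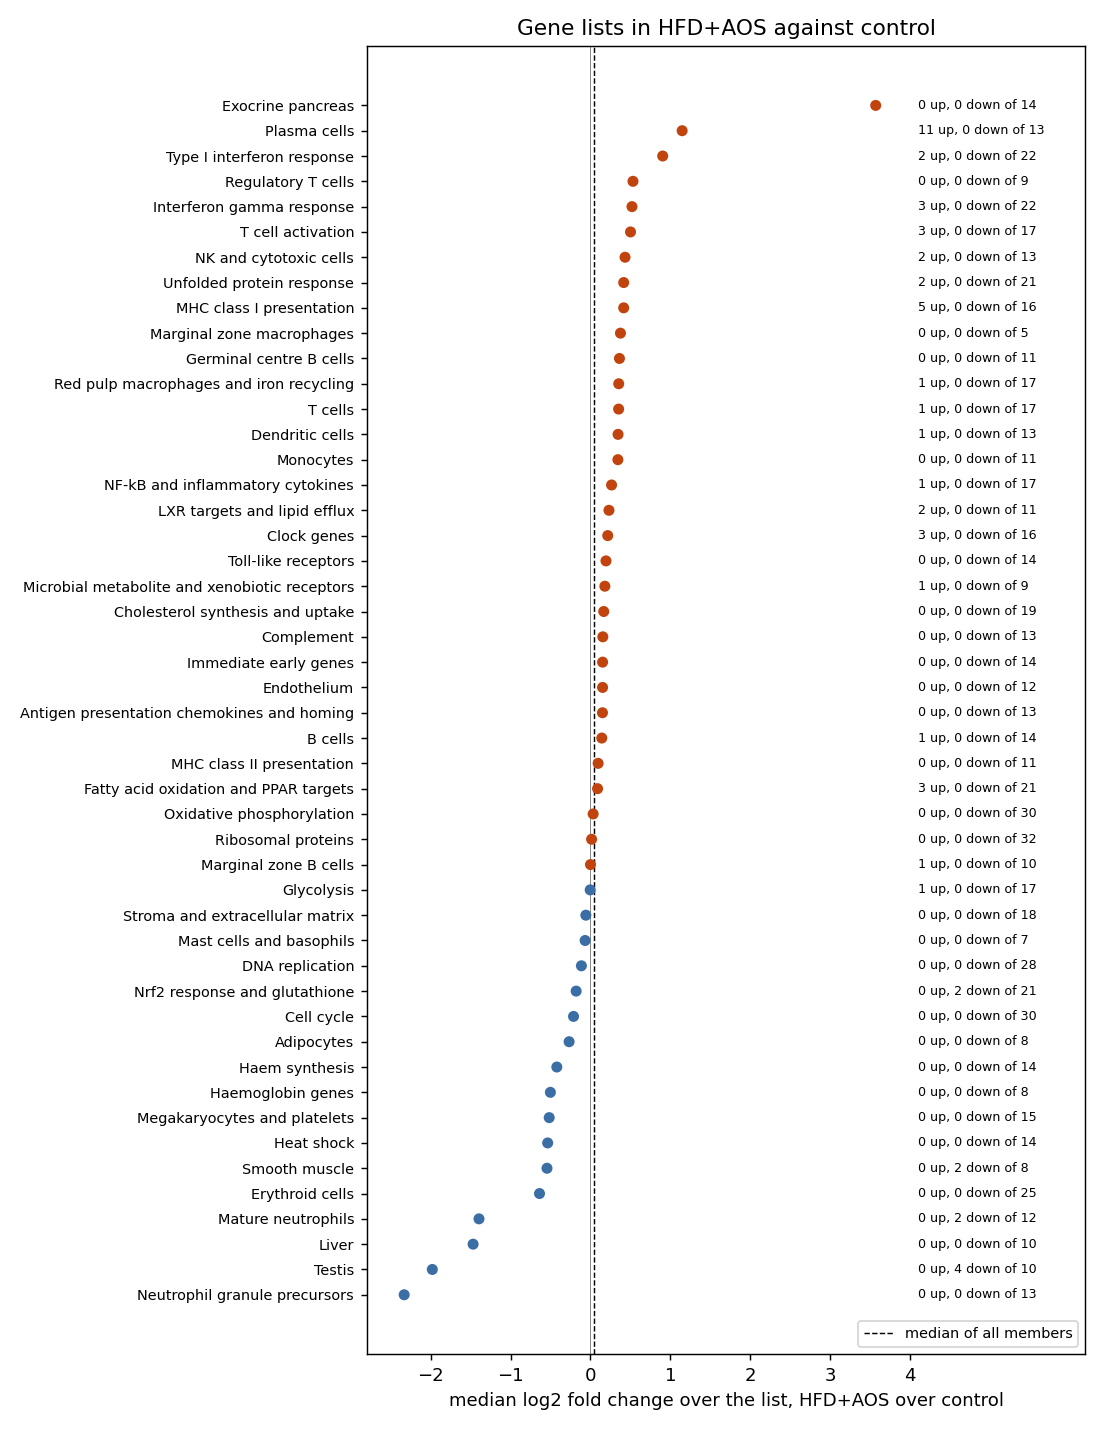
Median log2 fold change of HFD+AOS over control for 48 gene lists, as points, with the number of members called higher (up) or lower (down) beside each. The dashed line is the median of all members, 0.046. Plasma cells hold 11 calls at a median of 1.15, and the lists at both ends, pancreas and granule precursors, hold 0.

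Clock genes changed in part. Nr1d1 (chromosome 11, 98767932 to 98775377, GRCm38), a repressor in the second loop of the molecular clock, was the called clock gene with the largest rise. It was at 6.9, 8.48 and 9.72 FPKM in HFD+AOS libraries 1 to 3, against 1.61, 1.99 and 2.13 FPKM in control libraries 1 to 3 (log2 fold change 1.68 ± 0.22 SE; limma, adjusted p = 0.01596). The lowest HFD+AOS library was over 3 times the highest control. Dbp, an output transcription factor driven by E-boxes, was at 12.5, 15.9 and 16.2 FPKM on HFD+AOS, against 4.89, 7.12 and 7.15 FPKM in controls and rose by 1.11 (limma, adjusted p = 0.01596). Bhlhe41, which represses E-box genes, was at 4.97, 5.38 and 4.19 FPKM on HFD+AOS, against 2.08, 2.82 and 1.91 FPKM in controls and rose by 0.84. Of the 16 members, 10 lay higher, 7 of them with groups apart, and 6 lay lower, 1 of them with groups apart. Over all members 12.5% lay higher and 4.82% lower with groups apart. The median was 0.22, and the 3 calls (18.8%) stand against 1.83% of all members called higher. Nr1d2 (10.7, 12.4 and 14.4 FPKM on HFD+AOS, against 5.66, 8 and 10.3 FPKM in controls, adjusted p = 0.0602) came next without passing. The E-box lay in 5 of 13 promoters of the list (38.5%). The count of 3 became 0 without HFD+AOS library 2, 1 without control library 1 and 7 without control library 3. The hour of sampling is not given in the labels, so treatment and hour cannot be told apart. An exon of Nr1d1 overlaps Thra on the opposite strand, and the strand setting is not given. Thra itself averaged 9.17 FPKM on HFD+AOS and 9.94 FPKM in controls. Dbp likewise overlaps Sphk2, which averaged 15.7 FPKM in each of the 2 groups. Bhlhe41 overlaps Gm43909 on the opposite strand.

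Cirbp and Rbm3, RNA-binding proteins induced by mild cold, were chosen here after their values were seen. Cirbp was at 66.7, 63.6 and 52.5 FPKM in HFD+AOS libraries 1 to 3, against 41.3, 27.7 and 27.2 FPKM in control libraries 1 to 3 and rose by 0.93 (limma, adjusted p = 0.0353). Rbm3 was at 454, 415 and 363 FPKM on HFD+AOS, against 324, 267 and 211 FPKM in controls and rose by 0.63 (limma, adjusted p = 0.0454). An exon of Rbm3 overlaps the antisense gene Rbm3os. All 14 heat shock genes lay lower, with a median of −0.54, but 0 were called in limma. Hsp90aa1, a cytosolic chaperone, was at 276, 234 and 352 FPKM on HFD+AOS, against 405, 581 and 711 FPKM in controls, and the groups did not overlap (adjusted p = 0.105). The stress-induced chaperone gene Hspa1a was at 2.47, 0.98 and 31.5 FPKM on HFD+AOS, against 6.48, 20.99 and 49.8 FPKM in controls, where HFD+AOS library 3 lay above 2 of the controls.

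**Figure D4:**
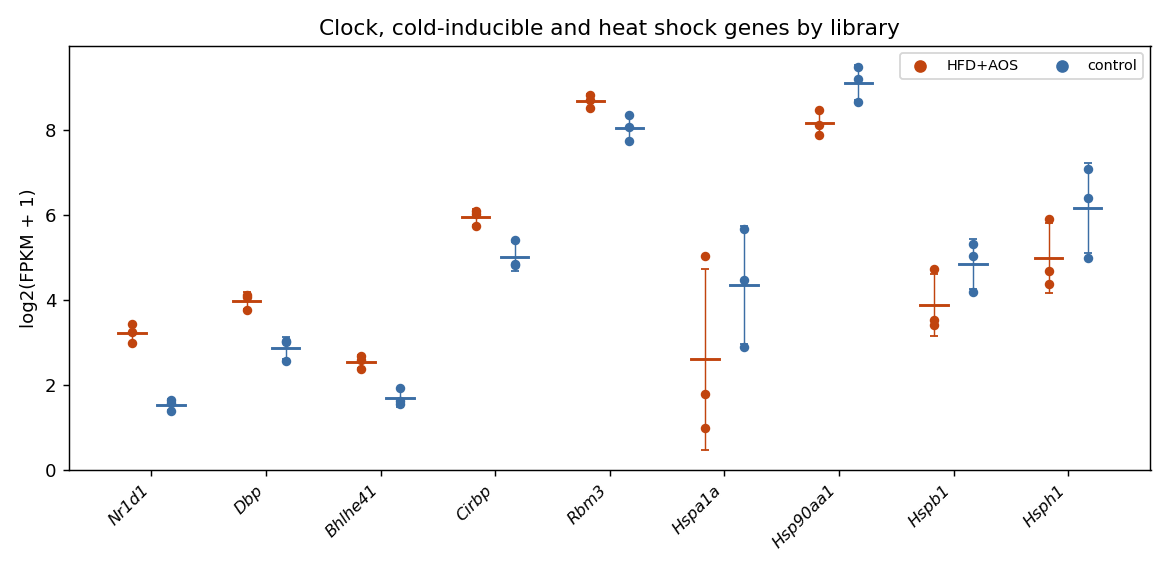
Log2(FPKM + 1) of 3 called clock genes, 2 called cold-inducible genes and 4 heat shock genes in each library, HFD+AOS (orange) left of control (blue), with the mean as a bar and the SD as whiskers (n = 3). The 5 called genes are apart between the groups, and Hspa1a, Hspb1 and Hsph1 overlap.

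Lipid genes gave a few calls within lists whose medians were small. Cpt1a, which admits fatty acids to mitochondria, was at 35.5, 34.9 and 38.1 FPKM in HFD+AOS libraries 1 to 3, against 22.8, 23.7 and 25.2 FPKM in control libraries 1 to 3 (log2 fold change 0.58 ± 0.14 SE; limma, adjusted p = 0.0473). Slc25a20, the carrier of acylcarnitines across the inner membrane, was at 13.6, 12.6 and 12.4 FPKM on HFD+AOS, against 8.25, 10.2 and 7.87 FPKM in controls and rose by 0.51. Acot1, a cytosolic acyl-CoA thioesterase, was at 4.48, 3.52 and 4.8 FPKM on HFD+AOS, against 1.39, 1.77 and 1.81 FPKM in controls and rose by 0.98. These were the 3 calls among 21 genes of fatty acid oxidation and PPAR targets (14.3%), against 1.83% of all members called higher. In that list 14 lay higher, with a median of 0.089 that turned to −0.049 with haemoglobin left out. Without HFD+AOS library 1, 2 or 3 or control library 1 the count was 0. Acot1 has close copies next to it in the genome, so its reads may be shared.

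Of 11 genes in the list of LXR targets and lipid efflux, 10 lay higher (median 0.23). Pltp, the phospholipid transfer protein, and Abcg1, a sterol transporter, were called (18.2% of the list, against 1.83% of all members called higher). They were at 25.6, 28.2 and 30.5 FPKM on HFD+AOS, against 16.6, 21.4 and 21.8 FPKM in controls, and at 15.9, 17.1 and 19.7 FPKM on HFD+AOS, against 9.53, 12.2 and 15.2 FPKM in controls. Both calls were lost without any 1 of the 3 HFD+AOS libraries or of control libraries 1 and 2. Pfkfb3, which stimulates glycolysis, was at 21.1, 24.2 and 24.1 FPKM on HFD+AOS, against 15.9, 18.9 and 18.2 FPKM in controls and was the 1 call of 17 glycolysis genes, whose median was 0.00. Hcar2, a receptor for butyrate, niacin and ketone bodies, was at 5.95, 4.92 and 5.44 FPKM on HFD+AOS, against 2.58, 2.63 and 3.4 FPKM in controls. It rose by 0.74 (limma, adjusted p = 0.02302) and was the 1 call of 9 receptors for microbial metabolites and xenobiotics (median 0.18). The 3 HFD+AOS libraries of Hcar2 lay within about 1 FPKM of each other, and it did not pass without any 1 of them or without control library 1 or 2.

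The falls were fewer, and the deepest were in genes of other organs. Kap (chromosome 6, 133849855 to 133853667, GRCm38), which is made in the kidney under androgen control, was at 0.15, 0 and 0 FPKM in HFD+AOS libraries 1 to 3, against 13.3, 20.1 and 20.97 FPKM in control libraries 1 to 3 (log2 fold change −4.16 ± 0.76 SE; limma, adjusted p = 0.0183). The HFD libraries had 27.1, 21.2 and 0.48 FPKM, each AOS library was listed at 0, and the highest of the 6 FMT libraries had 0.90 FPKM. Of 14 kidney genes, chosen after Kap had been seen, Kap alone was a member. It did not pass without HFD+AOS library 2 or 3 or control library 1. Prm1, a protamine that packs sperm DNA, was at 0.56, 0.28 and 0.3 FPKM in HFD+AOS libraries 1 to 3, against 11.3, 85.6 and 6.56 FPKM in control libraries 1 to 3 (log2 fold change −3.87 ± 0.71 SE; limma, adjusted p = 0.0183). Prm2 and Tnp2 were called too, at 0.15, 0.3 and 0.15 FPKM on HFD+AOS, against 6.93, 54.96 and 3 FPKM in controls, and at 0.35, 0.71 and 0 FPKM on HFD+AOS, against 7.42, 70.9 and 3.23 FPKM in controls. The transition protein gene Tnp1 was listed at 0 in all 3 HFD+AOS libraries and was at 5.44, 39.5 and 3.47 FPKM in controls, and was called. In each of these 4 testis genes control library 2 was the highest by far. All 10 testis genes lay lower and 8 had groups apart, against 4.82% of all members lower with groups apart. The 4 calls (40%) stand against 0.29% of all members called lower. Kap and these 4 testis genes had means under 1 FPKM on HFD+AOS and were members through the controls alone. Their direction was thus fixed by the filter, and the counts of the testis list describe the values and support nothing. The count of 4 was 0 without HFD+AOS library 2 or control library 1, 1 without HFD+AOS library 3, 2 without HFD+AOS library 1 and 8 without control library 3. Without control library 2 it was 5, with smaller fold changes, of −2.81 for Prm1 and −2.23 for Prm2, and a list median of −0.98 in place of −1.98.

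Neutrophil genes lay lower in all 12 mature and all 13 precursor members, with medians of −1.40 and −2.33. Calls were 2 (16.7%) and 0 (0%), against 0.29% of all members called lower. Stfa2l1, a stefin of neutrophils, was at 1.86, 1.07 and 3.68 FPKM in HFD+AOS libraries 1 to 3, against 21.1, 9.58 and 4.78 FPKM in control libraries 1 to 3 (log2 fold change −1.87 ± 0.39 SE; limma, adjusted p = 0.0265). Clec4d, a lectin receptor, was at 1.52, 1.66 and 1.16 FPKM on HFD+AOS, against 5.37, 2.85 and 2.42 FPKM in controls and fell by 0.84 on the log2 scale. Mrgpra2b, a receptor gene outside the lists, was at 2.07, 1.18 and 0.98 FPKM on HFD+AOS, against 19.02, 6.54 and 3 FPKM in controls and was called as well. In all 3 genes control library 1 was highest and control library 3 nearest to the HFD+AOS libraries. The calprotectin subunit gene S100a8 was at 340.5, 160.4 and 114 FPKM on HFD+AOS, against 5154, 1315 and 276 FPKM in controls, and the groups overlapped. The precursor list averaged 4.35, 3.63 and 2.94 on HFD+AOS, against 7.82, 6.12 and 3.76 in controls, and 3.39 to 4.56 in the other 12 libraries. Control libraries 1 and 2 were thus above all 16 other libraries. Without control library 3, 9 mature and 13 precursor genes were called, and without control library 1, 0 and 0, with medians of −0.88 and −1.34. The 2 calls of mature neutrophils also became 0 without HFD+AOS library 1 or 2 or control library 2 and 1 without HFD+AOS library 3. Stfa2l1 and Mrgpra2b have close copies in the genome, which may share their reads.

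**Figure D5:**
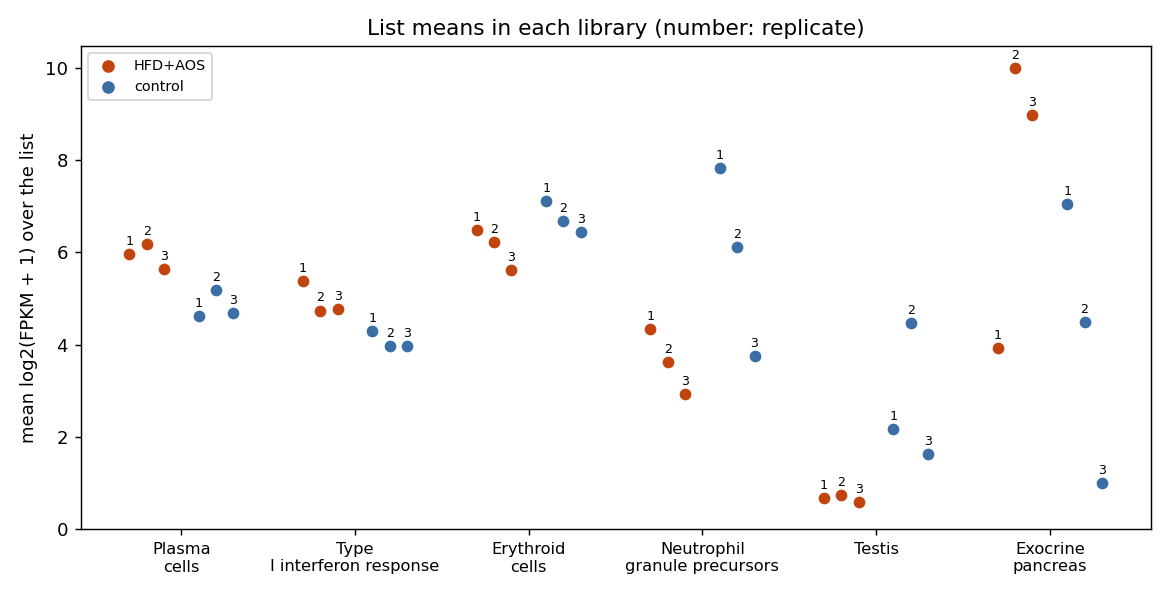
Mean log2(FPKM + 1) over the members of 6 gene lists in each library, HFD+AOS (orange) left of control (blue), with the replicate number above each point. Plasma cell and interferon means are apart between the groups, granule precursor means overlap at control library 3, and pancreas means vary within both groups.

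Contractile genes of smooth muscle lay lower in 7 of 8 members, with a median of −0.54. The 2 calls (25%) stand against 0.29% of all members called lower. Acta2, smooth muscle actin, was at 21.2, 27.8 and 33.1 FPKM in HFD+AOS libraries 1 to 3, against 49.5, 72.5 and 51.6 FPKM in control libraries 1 to 3 (log2 fold change −1.06 ± 0.20 SE; limma, adjusted p = 0.0183). Tagln, transgelin, was at 39.6, 45.3 and 55.2 FPKM on HFD+AOS, against 86.5, 93.2 and 84.99 FPKM in controls and fell by 0.92. The highest HFD+AOS library of both genes stayed below the lowest control. An exon of Tagln overlaps Pcsk7 on the opposite strand, which averaged 20.1 FPKM on HFD+AOS and 17.6 FPKM in controls. The spleen capsule and trabeculae hold smooth muscle, and the list averaged 3.15, 3.40 and 3.70 on HFD+AOS, against 3.81, 4.17 and 3.91 in controls. Without HFD+AOS library 1 or 2 or control library 1 or 2 neither gene passed.

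Of 21 genes of the Nrf2 response and glutathione, 17 lay lower with a median of −0.18. Calls were 2 (9.52%), against 0.29% of all members called lower. Gsr, glutathione reductase, was at 9.87, 7.68 and 7.33 FPKM in HFD+AOS libraries 1 to 3, against 29.1, 18.6 and 12.4 FPKM in control libraries 1 to 3 and fell by 1.11 (limma, adjusted p = 0.0441), and its highest value was again in control library 1. Gstm1, a glutathione transferase, was at 17.97, 24.02 and 28.1 FPKM on HFD+AOS, against 43.3, 43.6 and 37 FPKM in controls and fell by 0.81. Neither passed without HFD+AOS library 1 or 2 or control library 1 or 2. The next falls were in no list. Pcp4l1, a small homologue of a calmodulin-binding protein, was at 2.47, 3.74 and 4.65 FPKM on HFD+AOS, against 10.7, 9.24 and 6.99 FPKM in controls and fell by 1.12. Trmo, a tRNA methyltransferase, was at 11.5, 10.2 and 9.86 FPKM on HFD+AOS, against 22.5, 24.7 and 15.8 FPKM in controls and fell by 0.92. Noct, a rhythmic phosphatase of NADP, was at 11.4, 10.6 and 8.34 FPKM on HFD+AOS, against 23.2, 17.3 and 11.9 FPKM in controls, fell by 0.70 and was highest in control library 1.

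Red cell genes lay lower in all 25 members, with a median of −0.64, 9 groups apart and 0 called in limma. Over all members 615 lay lower with groups apart (4.82%). Trim10, of late red cell maturation, was at 55.4, 62.2 and 42.2 FPKM on HFD+AOS, against 138, 97.4 and 87.4 FPKM in controls (adjusted p = 0.0816), and carbonic anhydrase Car2 was at 895, 746 and 488 FPKM on HFD+AOS, against 1673, 1239 and 1005 FPKM in controls (adjusted p = 0.0953). All 14 genes of haem synthesis and all 8 haemoglobin members also lay lower, at medians of −0.42 and −0.50 with 0 called. Hbq1a, a theta globin, and Hba-a1, an alpha globin with a near-identical copy, had the smallest p of the haemoglobin genes and overlapped between the groups. Of 30 cell cycle genes 26 lay lower (median −0.21) and of 28 DNA replication genes 26 (median −0.11), 0 called and all groups overlapping. Without control library 1 the DNA replication median turned to 0.067. Platelet genes lay lower in all 15 members (median −0.52) with 0 called. The erythroid list averaged 6.49, 6.22 and 5.63 on HFD+AOS, against 7.12, 6.69 and 6.44 in controls.

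HFD+AOS was then set against the diet alone, which asks what AOS added to the diet. In limma 0 members passed (0%; the lowest adjusted p was 0.0608, and 1907 had an unadjusted p under 0.05). Same-numbered libraries of the 2 groups deviated together (r = 0.236, 0.268 and 0.191), and with the replicate number as a block 33 members passed (0.259%), 13 higher and 20 lower on HFD+AOS. The pairing is not unique, since HFD+AOS library 3 went closer with HFD library 2 (r = 0.366) than with HFD library 3. HFD+AOS library 2 also went with HFD library 1 (r = 0.198), and HFD+AOS library 1 with HFD library 3 (r = 0.111). The block covered all 6 groups, so the 33 calls depend on a pairing by number that is not shown. Chst10, a sulfotransferase that makes the HNK-1 glycan, was at 6.7, 7.96 and 7.19 FPKM on HFD+AOS, against 11.3, 15.4 and 19.2 FPKM on HFD (log2 fold change −0.95 ± 0.11 SE; limma with the block, adjusted p = 0.00902, against 0.0608 without). S100a10, the annexin A2 partner, was at 192, 202 and 215 FPKM on HFD+AOS, against 268, 304 and 302 FPKM on HFD, and Stk26, a kinase, at 15.7, 17.9 and 19.03 FPKM on HFD+AOS, against 22.7, 26.8 and 24.5 FPKM on HFD. Both were lower on HFD+AOS with the block (adjusted p = 0.0389 and 0.0316).

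Among the rises over HFD with the block were the cold-inducible genes, Rbm3 (0.73 ± 0.104 SE; limma, adjusted p = 0.0316) and Cirbp (0.81 ± 0.15 SE; adjusted p = 0.0467), and the clock gene Dbp (0.96 ± 0.18 SE; adjusted p = 0.0467). Dbp was at 12.5, 15.9 and 16.2 FPKM on HFD+AOS, against 7.36, 7.14 and 6.94 FPKM on HFD. Tram2, of ER translocation, was at 5.07, 6.29 and 5.81 FPKM on HFD+AOS, against 3.08, 2.41 and 3.56 FPKM on HFD, and Rad18, a ubiquitin ligase of DNA damage tolerance, at 8.65, 8.2 and 6.93 FPKM on HFD+AOS, against 6.05, 4.56 and 4.76 FPKM on HFD. Cryab, a small heat shock protein, was at 7.84, 8.56 and 9.18 FPKM on HFD+AOS, against 15.2, 15.1 and 13.7 FPKM on HFD and lower with the block. Without control library 1, which is in neither group but shares the estimate of spread, 22 genes passed with no block, and without HFD+AOS library 3 or control library 3, 10 and 4. Without HFD library 1 or 3 it was 2.

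Against AOS alone 0 members passed in limma (0%; 682 had an unadjusted p under 0.05, and the lowest adjusted p was 0.398) and 0 with the replicate block, although same-numbered libraries went together there (r = 0.493, 0.388 and 0.318). The interaction of AOS and diet had 0 calls as well (0%; the lowest adjusted p was 0.221, and 2031 had an unadjusted p under 0.05). HFD against control gave 356 called members (2.79%) and AOS against control 0 (0%), from the same 3 control libraries as HFD+AOS against control, so the 3 comparisons are not independent.

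Group means of the leading genes stood as follows (mean ± SD, n = 3). Jchain was at 1311 ± 373 FPKM on HFD+AOS, 553 ± 154 on HFD, 902 ± 63.9 on AOS and 489 ± 234 in controls. Eaf2 was at 52.9 ± 17.7 FPKM on HFD+AOS, 12.8 ± 7.27 on HFD, 39.1 ± 12.5 on AOS and 9.51 ± 4.73 in controls. Nr1d1 was at 8.37 ± 1.41 FPKM on HFD+AOS, 3.85 ± 0.728 on HFD, 4.97 ± 1.59 on AOS and 1.91 ± 0.269 in controls. In Eaf2 the AOS mean was nearer to HFD+AOS than to HFD, in Jchain it lay between them, and in Nr1d1 HFD and AOS both lay between HFD+AOS and controls. Cpt1a was at 36.2 ± 1.73 FPKM on HFD+AOS, 36.5 ± 7.18 on HFD, 25.9 ± 0.187 on AOS and 23.9 ± 1.199 in controls. Acot1 was at 4.27 ± 0.666 FPKM on HFD+AOS, 3.98 ± 0.977 on HFD, 1.65 ± 0.236 on AOS and 1.66 ± 0.232 in controls. In these lipid genes the HFD mean was nearer to HFD+AOS and the AOS mean nearer to controls. Hcar2 was at 5.44 ± 0.515 FPKM on HFD+AOS, 3.49 ± 0.374 on HFD, 2.94 ± 0.776 on AOS and 2.87 ± 0.4597 in controls, with the highest mean on HFD+AOS. None of these 6 genes passed against HFD or against AOS without the block.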

How the data were processed

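Per the labels' protocols, spleens were frozen, RNA was extracted with Trizol and a PureLink kit and libraries followed standard Illumina protocols. Reads were aligned with Bowtie 0.12.2 to mm10, per the submitters' processing notes. The counting program, annotation, filters and strand setting were not given in the sources used here. The authors deposited 1 table of 19326 gene rows and 18 columns, matched to the labels by group code and number. Its unit was read from the deposited values as FPKM or RPKM. Column totals varied by 7.55% (coefficient of variation), but sums of value times transcript length by 0.785%, for the 97.1% of rows with a length. Read numbers are unknown, so no counting error is attached.

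Values were analysed as log2(FPKM + 1) in R 4.3.3 with limma 3.58.1 (an intensity trend and robust estimates of variance, through statmod 1.5.0), 1 fit to 18 libraries with 12 residual degrees of freedom. The 12969 genes whose mean reached 1 FPKM in at least 1 of 6 groups were tested, and p-values were adjusted by Benjamini-Hochberg over all of them at 0.05. The test was two-sided. The members, the 48 gene lists and the tests were chosen with earlier results of these data known, and 7 lists were added after the called genes were seen. Named genes were the 15 largest called rises and 15 largest called falls with groups apart, a higher mean of at least 2 FPKM and an established symbol, up to 4 called members per list with the smallest p (or the 2 smallest p where 0 were called), and up to 5 genes per direction for the differences from HFD and AOS. Others are given as further values of a list. For HFD+AOS against HFD and against AOS the replicate numbers were taken to pair the libraries, because residuals correlated by over 0.1 in every same-numbered pair. Against HFD some pairs with different numbers also exceeded 0.1, so the residuals do not single out pairing by number. The script was tested on simulated data. Gene positions are from a separate set of gene bounds on GRCm38, promoters from RefSeq on GRCm38.p6. Transcript lengths and exon overlaps are from GENCODE vM21. Figures used Python 3.11.15 and matplotlib 3.10.9. Alternatives were another pseudocount, other filters, 3 scalings, other variance settings, library weights, the 6 libraries alone, a replicate block and each of 18 libraries left out.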

Additional observations from a re-analysis of the deposited data

How the results depend on the processing

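The 271 genes called for HFD+AOS against control kept their sign under every alternative in which they were tested, and their number did not hold. That number was 134 under median ratios, 54 with haemoglobin genes left out, 1 in the 6 libraries alone and 3842 with library weights, which ran from 0.251 (control 1) to 4.05 (HFD+AOS 2). Leaving out 1 library gave 0 to 1287. The share of rises was 86.3%, and 73.9%, 76.9% and 51.9% under median ratios, quantile normalization and with haemoglobin left out. The replicate block gave 405 calls, but same-numbered libraries correlated at 0.025, 0.172 and 0.282, so the numbers are not shown to pair. Each HFD+AOS library correlated best with its own number, a hint from the data only. HFD+AOS against HFD had 1 call with a mean of at least 5 FPKM, 2 under median ratios, 2 under quantile normalization, 1 with haemoglobin left out, 1 in the libraries compared alone, 3870 with library weights, 33 with the block and 0 to 22 with 1 library left out. HFD+AOS against AOS had 1 in the libraries compared alone and 538 with library weights. The interaction had 3476 with library weights. Over the lists, 67 different genes were called, against 44 with no filter, 40 under median ratios, 17 with haemoglobin left out, 1 in the 6 libraries alone, 357 with library weights and 0 to 173 with 1 library left out. Sign changes among named genes in HFD+AOS against control were few. Atp5a1 went to −0.034 with haemoglobin left out. With 1 library left out, Retn ranged from −1.25 to 0.23, Klf2 from −0.0099 to 0.43 and S100a10 from −0.13 to 0.032, among them 0.0089 and 0.0097. The causes were not tested. Depth is unknown and limits what can be said of values near 0.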

Other observations

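Several gene groups of the spleen not described above lay close to the median of all members, 0.046, in HFD+AOS against control, with 0 called in limma. Ribosomal proteins had a median log2 fold change of 0.01 over 32 members, oxidative phosphorylation 0.03 over 30, endothelium 0.15 over 12 and stroma and extracellular matrix −0.06 over 18. Among stromal genes Col3a1, a fibrillar collagen, was at 20.6, 28.1 and 26.3 FPKM on HFD+AOS, against 30.9, 38.6 and 32.5 FPKM in controls, the 1 member of its list with groups apart (limma, adjusted p = 0.167). Toll-like receptors (0.19 over 14), immediate early genes (0.15 over 14), complement (0.15 over 13), homing genes (0.15 over 13) and cholesterol synthesis and uptake (0.17 over 19) had medians a little above 0. Without control library 1 the medians of complement, endothelium and homing genes turned to −0.077, −0.048 and −0.018, and without HFD+AOS library 3 that of immediate early genes turned to −0.094. Insig1, a brake on sterol synthesis, had the smallest p of its list at 16.9, 22.8 and 16.6 FPKM on HFD+AOS, against 11.6, 13.5 and 15.4 FPKM in controls (limma, adjusted p = 0.0711). Monocytes (0.34 over 11), marginal zone macrophages (0.38 over 5) and mast cells and basophils (−0.07 over 7) also had 0 calls. Cd209d, a lectin of marginal zone macrophages, was at 10.1, 11.6 and 14.1 FPKM on HFD+AOS, against 3.1, 5.82 and 8.45 FPKM in controls (adjusted p = 0.0723).

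Fat and liver transcripts varied between libraries of 1 group. Liver genes summed to 65.6, 47.0 and 11.2 FPKM on HFD+AOS, against 20.5, 248 and 231 FPKM in controls, and 9 of 10 lay lower with 0 called. Adipocyte genes had a median of −0.27 over 8 members, which was 0.46 without HFD+AOS library 1. Against AOS alone, the genes with the smallest p in each direction included Cd300a, an inhibitory receptor of myeloid cells, with a log2 difference of 0.54 (limma, adjusted p = 0.398), and the lipogenic genes Fasn (−0.72) and Thrsp (−1.93), none past the threshold.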
